A study of Trichoderma reesei with 12 samples.

Results

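The genes described here lie at the ends of the identifier series of Trichoderma reesei, a filamentous fungus known for secreting cellulases. Identifiers in the count table consist of Tr, a letter from A to G, a running number, and W or C. Numbers run without gaps from 1 to between 1209 (series G) and 2149 (series A). The first 50 and the last 50 numbers of each of the 7 series give 14 ends with 700 identifiers, and the members were chosen by their counts, as those with at least 60 summed over the 12 libraries. There were 501 members of 10876 identifiers of this form, between 30 (start of series F) and 41 (start of series A) per end. Each end is named by its letter and side, as in "D last" for the final 50 numbers of series D.

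RNA came from mycelium grown on cellulose as the carbon source at 28 °C for 96 h. Every strain carried the ku80 deletion, which removes a factor of non-homologous end joining and so makes gene replacement easier. The parent strain was QM6aΔku80, and QM6aΔku80Δtmk3 lacked in addition the kinase gene tmk3. Each strain was grown in constant darkness or constant light, which gives 4 groups of 3 libraries. No complemented strain was analysed here and the number of transformants is not stated, so the effect of losing tmk3 and that of other differences between the strains cannot be told apart.

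TMK3 belongs to the Hog1 type of mitogen-activated protein kinases, which in fungi transmit osmotic and other stress signals from the cell surface to transcription. In filamentous fungi the genes near chromosome ends often lie in compacted chromatin, include many genes of secondary metabolism, and tend to be expressed under narrow sets of conditions. The table gives no coordinates. Reading neighbouring numbers as neighbouring genes, and a series end as a chromosome end, rests on the form of the identifiers and was not tested.

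The rule used the counts of all groups together, so it fixed which genes could be seen. Another 199 identifiers at the ends were below the minimum, 51 of them with 0 counts. Just inside lay TrB0013C with 60 counts, TrF0023C with 60 and TrC0026W with 62, and just outside lay TrG1180W with 59, TrC1569W with 57 and TrA0004W with 56. For 83 members the counts fell below the minimum without the group that held most of them. This group was the dark parent for 35, the dark deletion strain for 29, the light parent for 13 and the light deletion strain for 6. Members of that kind well above the minimum had to differ between groups. Of the 83, 60 were tested, 24, 21, 10 and 5 in the same order of groups. They stay in all counts below, so part of these counts was fixed by the rule. The share of such genes in the whole table is not given. In all, 478 members passed edgeR's filter on low counts and 23 did not. The identifiers are not paired with gene names in the table, and 0 of them matched the reference gene table, so no function is given for any member. The tmk3 transcript could not be read for the same reason.

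The libraries held between 11599300 and 17702344 counts, of which the members took between 1.51% and 3.68%. Levels are given as CPM, counts scaled to a common TMM-adjusted library size, without correction for gene length, and are therefore compared between groups and not between genes. In darkness some libraries stood apart within their group. Replicate 2 of the dark parent held more than 5 times the next library's level of 10 members, at 20 CPM or more, replicate 1 of the dark deletion strain did so for 3 members, and replicate 3 of the dark parent for 1. In light, replicate 2 of the parent did so for 1 member. Whether the 3 libraries of 1 group are separate cultures is not stated, and the p-values then measure only a spread between libraries that may be technical. In such bulk RNA, fewer cells that express a gene and less RNA per cell cannot be told apart. Values from the fit are log2 fold changes, and a call means that edgeR's quasi-likelihood test gave an adjusted p (Benjamini-Hochberg, over all 8998 genes tested) below 0.05.

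The first comparison asked how the ends differed between the strains in darkness. Without tmk3, 154 of the 478 tested members were lower (32.2%, against 21.6% of all genes tested) and 84 were higher (17.6%, against 19.1%). The median log2 fold change of the members was -0.27, and that of all genes was -0.07. Scaling by total counts alone raised the median of all genes by 0.28 on the log2 scale and gave 105 higher and 121 lower members, a share of 46.5% higher among the calls in place of 35.3%. The members' median was then 0.02 and that of all genes 0.22, so the sign of the members' median turned while it stayed below that of all genes. Changes of at least 2-fold made up 134 of the falls and 63 of the rises, against 11.5% and 11.2% of all genes. Falls exceeded the share over all genes at 13 of the 14 ends. They ranged from 20% at A last (7 members) to 52.9% at D last (18 members), and E first followed with 50% (19 members). Rises were most frequent at C first, with 11 members or 33.3%.

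In light the deletion strain differed from its parent at fewer members. Here 103 were lower (21.5%, against 9.78% of all genes) and 39 were higher (8.16%, against 10.8%), with a median of -0.27 for the members and -0.003 for all genes. Changes of at least 2-fold made up 91 of the falls and 29 of the rises, against 6.29% and 7.17% of all genes. Falls ranged from 3.23% at G last, a single member, to 55.9% at D last, 19 members, and exceeded the share over all genes at 12 of 14 ends. F first stood beside D last, with 14 of its 28 tested members lower and 0 higher. Without D last, 84 of the remaining 444 tested members were lower (18.9%, against 9.78% of all genes). In darkness the number without D last was 136 (30.6%, against 21.6% of all genes).

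The light comparisons asked which members differed between constant light and constant darkness in each strain. In the parent 197 members were lower in light (41.2%, against 26.7% of all genes) and 81 were higher (16.9%, against 20.8%). In the deletion strain 192 were lower (40.2%, against 21.1%) and 62 were higher (12.97%, against 17.7%). Median log2 fold changes of the members were -0.61 in the parent and -0.86 in the deletion strain (-0.79 when members at 0 counts in a group are set to the bound that 3 counts give), and those of all genes were -0.05 and -0.01. At least 2-fold were 178 of the falls and 60 of the rises in the parent, against 17.6% and 8.92% of all genes, and 172 and 37 in the deletion strain, against 13.7% and 5.89%. C last had the highest share of members lower in light in both strains, 66.7% (20 members) in the parent and 63.3% (19 members) in the deletion strain, and E first came next with 65.8% and 57.9%. The lowest shares were 22.2% at E last in the parent and 16.7% at F last in the deletion strain. Without replicate 2 of the light deletion strain the members higher in light in that strain numbered 40 in place of 62, and without replicate 3 they numbered 41.

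**Figure D1:**
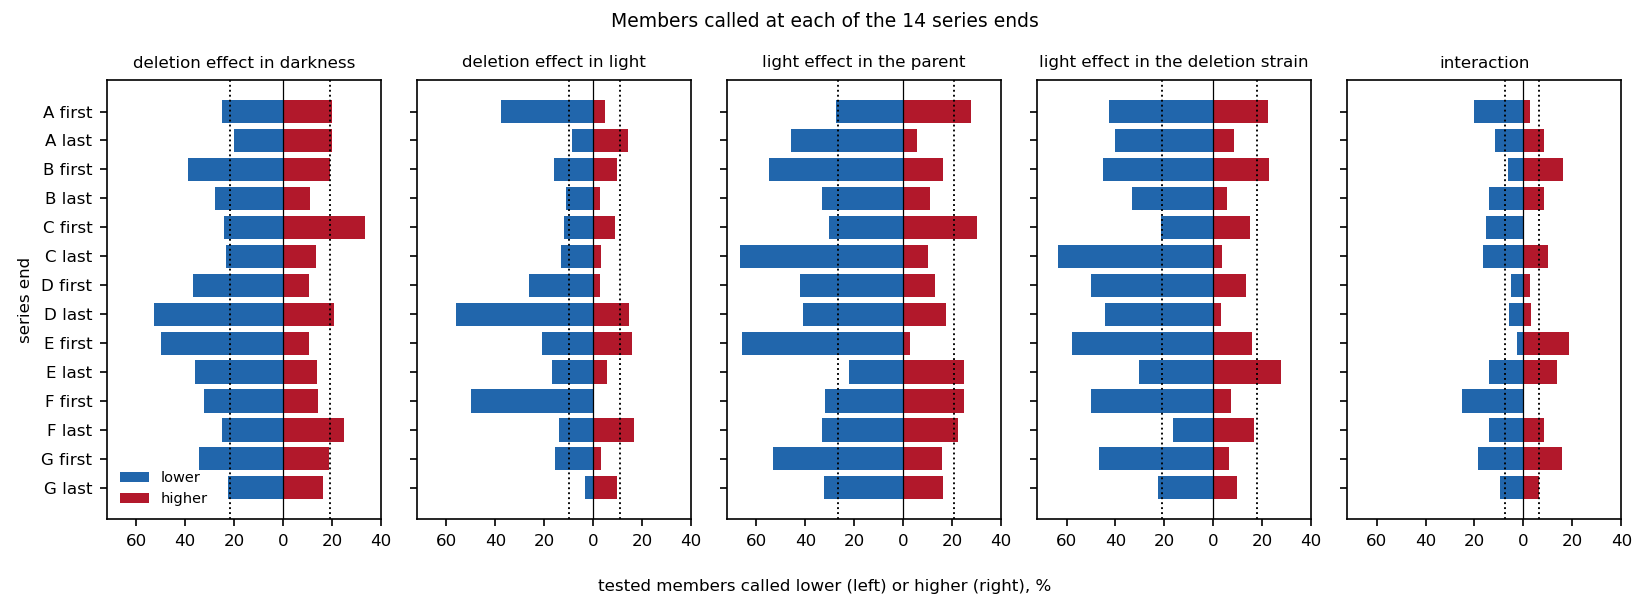
Share of tested members called lower (left, blue) or higher (right, red) at each of the 14 series ends, in percent, for the 5 contrasts, from the deletion in darkness to the interaction. Dotted lines give the share over all 8998 genes tested; D last reaches 52.9% and 55.9% lower for the deletion effects, and C last 66.7% and 63.3% for the light effects.

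The direction of the members' values was checked against the scaling. The median of the end lay below the median of all genes at 9 of 14 ends for the deletion in darkness, 11 for the deletion in light, 11 for light in the parent and 14 for light in the deletion strain, and these numbers were the same with TMM, with DESeq2's size factors and with total counts alone. Across both strains, whose light comparisons share no library, 134 members were lower in light in both (28.0% of those tested, against 14.1% of all genes) and 36 were higher (7.53%, against 10.4%). E first held 21 of the 134 and C last 15. Across both light conditions, 59 members were lower without tmk3 (12.3%, against 4.93%) and 23 were higher (4.81%, against 6.69%). D last held 15 of the 59, D first 8, and E first and F first 6 each. In no contrast was a call made for 84 tested members (17.6%, against 27.7% of all genes).

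Counted by the group with the highest mean level, 213 of the 501 members peaked in the dark parent, 140 in the dark deletion strain, 102 in the light parent and 46 in the light deletion strain. These are 42.5%, 27.9%, 20.4% and 9.18%, against 32.3%, 23.9%, 24.8% and 19.0% of all tested genes. The lowest mean lay in the light deletion strain for 212 members (42.3%, against 21.4% of all tested genes). Members that reached 60 counts only with their main group, 35, 29, 13 and 6 in the same order, are included. The rule therefore fixed part of these counts. The shares of members also include the 23 that were not tested. A mean of at least 1 CPM was reached by 424 members in the dark parent, 395 in the dark deletion strain, 347 in the light parent and 317 in the light deletion strain. Members with 0 counts in all libraries of a group numbered 5, 9, 21 and 38 in the same order. At these depths a count of 0 shows only that a transcript was not detected.

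The outer and inner numbers of the ends were then compared. Of the 140 identifiers in the outermost 10 numbers 74 were members, against 121 of 140 in numbers 41 to 50, and 85.3% of identifiers more than 100 numbers away passed the same minimum. In the deletion strain in darkness the share of lower members was 38.2% in numbers 1 to 10 and 50% in numbers 11 to 20. It was then 37.4%, 25.5% and, in numbers 41 to 50, 16.2%. Genes more than 100 numbers from an end had 20.5%, and those of numbers 51 to 100 had 28.5%. The innermost 10 numbers were thus below the share farther inside, and also with total-count scaling, where they had 7.69% and genes beyond 100 numbers 10.3%. Rises showed the opposite order, from 7.35% in numbers 1 to 10 to 30.8% in numbers 41 to 50, against 19.4% beyond 100 numbers.

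Light in the parent gave a steeper outer edge. There 64.7% of members in numbers 1 to 10 were lower in light, 44 of 68, followed by 42.4%, 45.5%, 33.3% and 29.9%, and by 25.4% beyond 100 numbers. In the deletion strain the corresponding shares were 54.4%, 35.9%, 41.4%, 41.2% and 33.3%, against 19.4%. For the deletion in light they were 25%, 25%, 22.2%, 21.6% and 16.2%, against 8.64%. Leaving out each end in turn, the share in numbers 1 to 10 lay between 33.9% and 42.6% for the deletion in darkness, between 17.7% and 27.0% for the deletion in light, and between 60.7% and 68.3% for light in the parent. Splitting each end at number 25, the outer members were lower more often at 12 of 14 ends for the deletion in darkness (43.4% against 23.8% in all), at 10 ends for the deletion in light (24.9% against 19.0%), at 11 ends for light in the parent (50.7% against 34.1%) and at 8 ends for light in the deletion strain (42.0% against 38.8%). These are descriptions, since neighbouring members are not independent and the comparisons share groups of libraries.

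Detection by group followed the same axis. Of the 74 members in numbers 1 to 10, a mean of 1 CPM was reached by 58 in the dark parent, 52 in the dark deletion strain, 34 in the light parent and 29 in the light deletion strain. In numbers 41 to 50 it was reached by 83.5%, 90.1%, 81.8% and 83.5% of 121 members in the same order. Beyond 100 numbers the share was between 89.3% and 94.1% in every group.

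**Figure D2:**
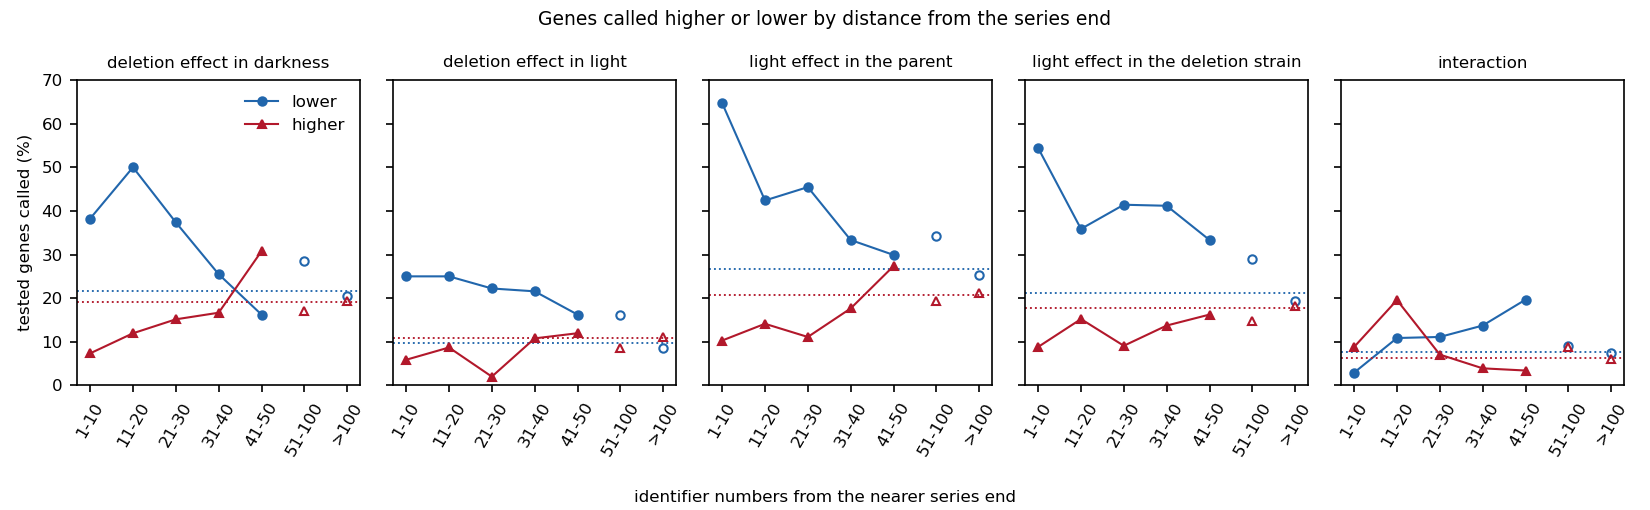
Share of tested genes called lower (blue circles) or higher (red triangles), in percent, by the number of identifiers from the nearer series end, for the 5 contrasts. Filled symbols are members in bins of 10 numbers, open symbols are genes of numbers 51 to 100 and beyond 100, and dotted lines give the share over all genes tested; the share lower in light in the parent is 64.7% in numbers 1 to 10 and 29.9% in numbers 41 to 50.

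Summed over all 501 members, the level was 39752, 36447 and 35467 CPM in the dark parent and 30363, 19198 and 20907 CPM in the dark deletion strain. In light it was 18154, 19106 and 18037 CPM in the parent and 14389, 14219 and 14818 CPM in the deletion strain. With TMM scaling the 4 groups did not overlap, and the dark parent was the highest. Much of this gap belonged to single members: without TrG0022C the dark groups overlapped in darkness, with means of 29733 ± 2279 and 23253 ± 5867 CPM (SD, n = 3). The TMM factors were 0.761 for replicate 2 of the dark parent and 1.07 for replicate 1 of the dark deletion strain. With total counts alone, these libraries change order and the dark groups overlap with TrG0022C included.

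By end, the summed level of the dark deletion strain lay wholly below that of the dark parent at 5 ends, wholly above at 2 and overlapped at 7. With the leading member of each end left out it lay below at 7 ends and above at 2. In light it lay below at 12 ends, above at E first, and overlapped at A last. Light lay below darkness at 9 ends in the parent and 10 in the deletion strain, and above at 1 in each, C first. Without the leading members these were 10 below and 1 above in the parent, and 8 below and 3 above in the deletion strain, and for the deletion in light 10 below and 1 above. At E last 2 contrasts turned without the leading member TrE1264W: the ratio without tmk3 in darkness went from 1.38, wholly above, to 0.631, wholly below, and that of light in the deletion strain from 0.428, wholly below, to 1.25, wholly above. At E first the ratio of light in the deletion strain went from 0.783 to 1.29, where the groups overlapped. At A last, C last and F last a ratio also crossed 1 without the leading member, with groups that overlapped either before or after. With total-count scaling these counts were 3 below and 4 above for the deletion in darkness, 9 and 2 for the deletion in light, 7 and 3 for light in the parent, and 10 and 0 for light in the deletion strain. With that scaling, the ratio of F first in darkness alone turned, from 0.897 to 1.08, among the ratios of the 14 ends in these 4 comparisons.

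**Figure D3:**
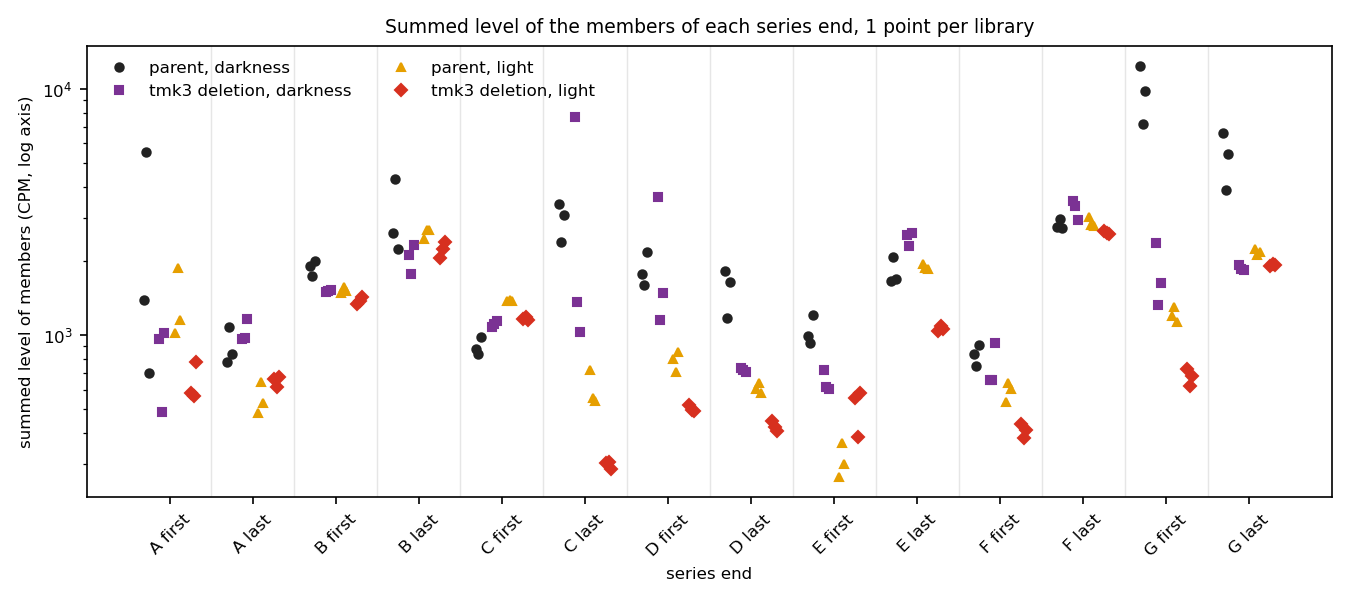
Summed level of the members of each series end in CPM on a log axis, 1 point for each of the 12 libraries, by group. At G first the dark parent lies between 7184 and 12373 CPM and the light deletion strain between 620 and 730.2 CPM, whereas at F last all libraries lie between 2569 and 3492 CPM.

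A single member made up much of the sum at several ends. TrG0022C held 76.5% of the sum of G first in the dark parent, with 9954, 4468 and 8045 CPM, against 399, 106 and 203 CPM in the dark deletion strain. In light it had 10.6, 58.8 and 14.4 CPM in the parent and 124, 33.4 and 3.16 CPM in the deletion strain. All libraries of the dark parent were above those of the other groups, while the light groups overlapped. The fall without tmk3 in darkness was -4.99 (SE 1.17, edgeR adjusted p = 0.00652), and that in light in the parent was -8.07 (SE 1.34, edgeR adjusted p = 0.000598).

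TrG1206C at G last, number 4 from the outside, had 3552, 1433 and 2778 CPM in the dark parent and 142, 41.9 and 96.4 CPM in the dark deletion strain. The light parent had 0.695, 21.2 and 3.29 CPM, and the light deletion strain 40.3, 9.13 and 0.162 CPM. Here too the dark parent stood wholly above the rest. It fell in light in the parent by 8.27 on the log2 scale (SE 1.65, edgeR adjusted p = 0.00194). The fall without tmk3 in darkness, -4.79 (edgeR adjusted p = 0.0197), lost its call without replicate 2 (-4.44, adjusted p = 0.0733) or replicate 3 (-4.82, adjusted p = 0.0617) of the dark deletion strain.

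TrC1552C at C last and TrD0036W at D first were low in light in both strains. TrC1552C had 2340, 1305 and 2019 CPM in the dark parent and 6994, 659 and 332 CPM in the dark deletion strain, whose libraries surrounded those of the parent. In light it had 10.7, 34.9 and 13.3 CPM in the parent and 8.62, 7.94 and 0.243 CPM without tmk3, all below the dark libraries. The log2 fold changes for light were -6.59 (SE 1.37) and -8.89 (SE 1.52), with edgeR adjusted p of 0.00239 and 0.001. TrD0036W, with 980, 631 and 1196 CPM in the dark parent and 2650, 371 and 328 CPM in the dark deletion strain, had between 7.35 and 26.0 CPM in all light libraries. It fell in light by 6.02 (SE 0.90) in the parent and by 6.93 (SE 0.94) in the deletion strain, with edgeR adjusted p of 0.000286 and 0.000222. Replicate 1 of the dark deletion strain held the high value of both members, and neither was called between the strains.

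Among the leading members of the other ends, changes were smaller. TrE0021C had 481, 469 and 513 CPM in the dark parent, 374, 313 and 282 CPM in the dark deletion strain, and 109, 144 and 112 CPM against 95.8, 86.1 and 87.1 CPM in light. The 4 groups did not overlap, and its log2 fold changes for light were -2.004 in the parent and -1.85 in the deletion strain (SE 0.14 for both, edgeR adjusted p = 1.68e-06 and 5.22e-06). Its falls without tmk3, -0.60 in darkness and -0.44 in light, were lost with total-count scaling (-0.31 and -0.33, adjusted p = 0.167 and 0.232), and that in light also without any of 6 libraries. TrA2104C had 164, 131 and 179 CPM in the dark parent and 334, 385 and 401 CPM without tmk3, then 49.0, 61.1 and 53.2 CPM in the light parent and 187, 175 and 183 CPM without tmk3. It was higher without tmk3 by 1.24 in darkness and 1.74 in light (edgeR adjusted p = 6.51e-05 and 1.07e-05) and was lower in light in both strains. TrB0034C was called for light in the deletion strain alone, by 0.38, and not with total-count scaling (0.36, adjusted p = 0.103) or without any of 4 libraries of that strain. TrC0038C and TrB1932W were called in none of the 5 contrasts, and TrA0027W, between 21.8 and 4443 CPM with its highest value in replicate 2 of the dark parent, was not called either.

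**Figure D4:**
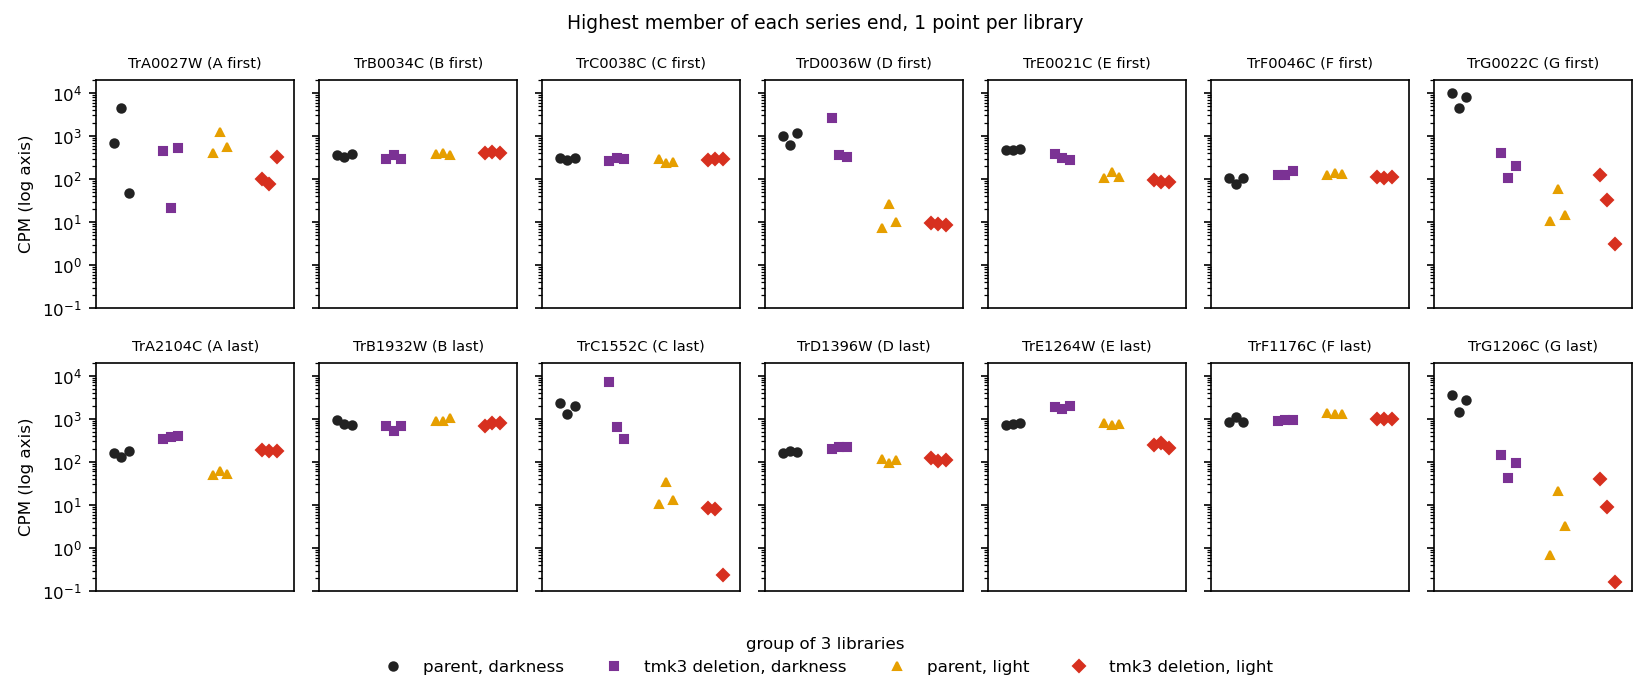
Level in CPM on a log axis of the member with the highest mean level at each of the 14 series ends, 1 point per library and 3 libraries per group. TrG0022C and TrG1206C are higher in each dark parent library than in any library of another group. TrC1552C and TrD0036W are higher in each dark library than in any light one. The spread within some groups of these members is wide. TrB0034C stays between 288 and 415 CPM and TrC0038C between 232 and 317 CPM in all 12 libraries.

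The longest run of called neighbours was taken per contrast and direction, and the longest of these was at D last. Neighbours are tested members in order of number, so other identifiers can lie between them. Runs of genes away from the ends are not given, so runs are not shown to be particular to the ends. In light, 17 tested members in a row from TrD1415W to TrD1441C, over 27 numbers, were lower without tmk3. Their counts summed to 8603 in the light parent and 108 in the light deletion strain, or 150, 268 and 171 CPM against 3.72, 3.44 and 1.22 CPM. Darkness gave 1011, 558 and 809 CPM in the parent and 54.2, 6.17 and 26.1 CPM without tmk3. No library of the deletion strain reached the level of any parent library, and the highest of its 6 libraries was replicate 1 in darkness. In 9 of the 17 members a group held 0 counts, so no median fold change is given.

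Within this stretch TrD1440W, the outermost D last member whose log2 CPM averaged at least 3, had 586, 245 and 422 CPM in the dark parent and 22.6, 1.21 and 9.23 CPM in the dark deletion strain. In light it had 23.5, 69.4 and 34.8 CPM against 1.19, 0.823 and 0.324 CPM. The groups of each light condition were separate, with falls of -5.25 (SE 0.86, edgeR adjusted p = 0.000859) and -5.75 (SE 0.98, edgeR adjusted p = 0.00181). TrD1424C had 43.6, 27.0 and 47.5 CPM in the dark parent and 35.0, 53.9 and 45.1 CPM in the light parent, against at most 2.72 CPM in the deletion strain. It fell by 5.32 in darkness (7.70 without replicate 1 of the dark deletion strain) and by 8.33 in light (SE 0.98, edgeR adjusted p = 0.000187), and light was not called in the parent. TrD1438C held 296 counts in the light parent and 2 without tmk3, a ratio of 128 (95% exact interval 35.1 to 1062, counting error only). TrD1430C held 217 counts in the light parent and 0 in either group of the deletion strain, and was at least 62.5-fold lower in light. It reached the minimum of 60 counts through the light parent alone, so the choice of members fixed that it had to differ. Inward of the run, TrD1410W was also lower without tmk3 in both conditions (-2.35 and -2.94), and TrD1412C and TrD1414C were lower in darkness (-3.97 and -1.82) and not called in light. These 3 were named after their values were seen. Farther inward, TrD1406C, TrD1407W and TrD1408C, numbers 38 to 36 from the end, summed to 33.4, 26.4 and 25.8 CPM in the dark parent and 138, 144 and 153 CPM without tmk3. In light the sums were 16.2, 19.2 and 16.4 CPM against 41.6, 33.2 and 37.9 CPM, and each of the 3 was called higher in both conditions. TrD1415W, at the inner edge of the run, was the least firm of the named members there, since leaving out any of 5 light libraries ended its call in light (adjusted p up to 0.114).

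E first held a run whose direction depended on the light. In darkness the 8 members from TrE0009C to TrE0016W, consecutive in number, were all lower without tmk3, with sums of 103, 62.5 and 171 CPM in the parent and 13.8, 14.1 and 9.46 CPM in the deletion strain. Their median log2 fold change was -3.82. In light the 6 members from TrE0011C to TrE0016W summed to 23.0, 51.9 and 34.7 CPM in the parent and 262, 161 and 349 CPM without tmk3, against 6.51, 4.01 and 1.99 CPM in the dark deletion strain. The summed level without tmk3 was thus lowest in darkness and highest in light, and neither sum overlapped that of any other group. Of the single members, TrE0013C and TrE0016W had light libraries without tmk3 that overlapped parent libraries. For TrE0016W these were libraries of the dark parent, and it was separate from the light parent. Light raised all 6 in the deletion strain, with a median of 6.18, whereas in the parent TrE0016W alone was called and it fell.

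TrE0016W had 16.1, 12.3 and 28.3 CPM in the dark parent, 0.644, 0.191 and 0.228 CPM in the dark deletion strain, 1.22, 2.24 and 1.41 CPM in the light parent and 25.9, 6.44 and 21.8 CPM in the light deletion strain. It was lower without tmk3 in darkness (-5.75, SE 0.67, edgeR adjusted p = 0.000104) and higher in light (3.47, SE 0.56, edgeR adjusted p = 0.00137). TrE0012W had 5.82, 5.11 and 9.74 CPM in the dark parent and 3.94, 7.89 and 7.06 CPM in the light parent, which overlapped. Without tmk3 it had 0.501, 0.636 and 0.171 CPM in darkness and 32.6, 25.5 and 42.8 CPM in light, a rise of 6.27 (SE 0.48, edgeR adjusted p = 5.42e-06). TrE0011C and TrE0014C rose in light in the deletion strain by 5.68 and 6.09. TrE0013C had a positive value for the deletion in light, 1.15, that was not called. On either side of the run the values differed: TrE0008W and TrE0017C, chosen after their values were seen, were higher without tmk3 in darkness, by 3.56 and 3.52, at mean levels of at most 4.77 CPM. Both reached 60 counts through the dark deletion strain alone.

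**Figure D5:**
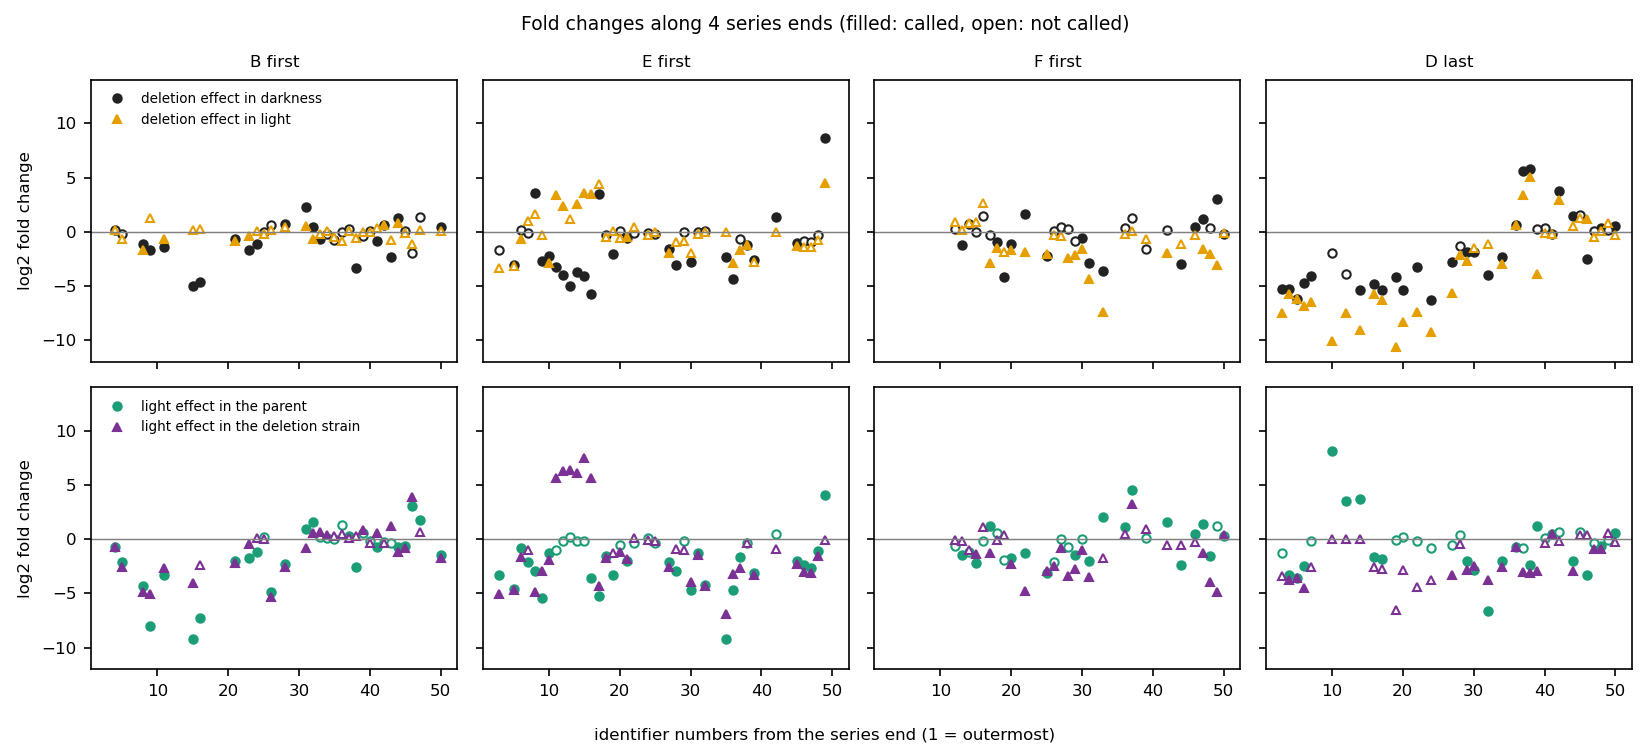
Log2 fold change of each tested member against its number from the outside at B first, E first, F first and D last, with the deletion effects in the upper row and the light effects in the lower row. Filled symbols were called and open ones were not; values of members at 0 counts in a group depend on the prior count. At E first the deletion values of numbers 11 to 16 are below 0 in darkness and above 0 in light, and at D last the deletion values of numbers 3 to 29 are below 0 in both.

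Other runs were of 1 direction. At B first, 8 tested members from TrB0008C to TrB0024W were lower without tmk3 in darkness, with sums of 732, 670 and 774 CPM in the parent and 295, 228 and 289 CPM in the deletion strain. The same stretch extended outward to TrB0004W, 10 members, was lower in light in the parent, at 745, 680 and 787 CPM in darkness and 128, 150 and 143 CPM in light. In each of these comparisons the groups did not overlap. Both comparisons used the same dark parent libraries, so these falls are not independent. TrB0004W itself lost its call with total-count scaling (-0.54, adjusted p = 0.0953), in a fit to the groups compared, and without replicate 3 of the dark parent or replicate 1 of the light parent. TrB0008C had 53.9, 65.9 and 46.6 CPM in the dark parent and 22.4, 23.9 and 29.4 CPM without tmk3, then 2.43, 3.28 and 2.43 CPM against 1.11, 0.749 and 0.648 CPM in light. It fell in all 4 of these comparisons, most in light, by 4.35 (SE 0.22, edgeR adjusted p = 1.88e-07) in the parent and 4.90 (SE 0.25, edgeR adjusted p = 2.94e-07) in the deletion strain. TrB0015C had 39.7, 34.8 and 59.3 CPM in the dark parent and 3 counts in the light parent, a ratio of 662 (95% exact interval 226 to 3214, counting error only).

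At C last, 9 members from TrC1536W to TrC1548C were lower in light in the deletion strain, with sums of 379, 429 and 332 CPM in darkness and 74.8, 70.6 and 66.2 CPM in light. Their sums in the parent were 337, 204 and 408 CPM in darkness and 79.8, 99.6 and 85.9 CPM in light. The parent groups did not overlap either. TrC1547W, near the outer edge, had 37.9, 13.4 and 48.7 CPM in the dark parent and 4.65, 4.77 and 3.13 CPM in the dark deletion strain. In light it held 3 counts in the parent and 0 without tmk3, so that it was at least 52.7-fold lower in light in the deletion strain. At F first, 9 members from TrF0020C to TrF0031C were lower in light in the same strain, at 217, 189 and 207 CPM in darkness and 65.7, 65.7 and 69.9 CPM in light, and the light parent lay between at 111, 174 and 146 CPM. These 3 groups did not overlap, but the dark parent, at 324, 166 and 353 CPM, overlapped both the dark deletion strain and the light parent.

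Runs of rises were shorter. At C first, the 5 members from TrC0039W to TrC0043C were higher without tmk3 in darkness, with sums of 185, 172 and 219 CPM in the parent and 332, 304 and 346 CPM in the deletion strain. TrC0039W, at its edge, was not called without replicate 3 of the dark deletion strain (2.21, adjusted p = 0.0553). At A first, the 4 tested members from TrA0046W to TrA0050C were higher in light in the parent, at 58.9, 58.8 and 60.2 CPM in darkness and 110, 100 and 109 CPM in light. TrA0050C had 18.6, 8.90 and 15.1 CPM in darkness and 39.4, 34.3 and 35.4 CPM in light, a rise of 1.35 (SE 0.24, edgeR adjusted p = 0.00103), and it fell in light without tmk3, by 0.82. That fall was not called without replicate 1 or 2 of the dark deletion strain or replicate 3 of the light one, with values between -0.94 and -0.71 over the libraries left out in turn. TrA0046W lost its call in light in the parent without replicate 1 of the dark parent (1.66) or replicates 1 or 2 of the light parent (1.79 and 1.73).

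At each end the outermost member whose log2 CPM averaged at least 3 was taken whatever its change. Of these 14, 9 were lower and 2 higher in light in the parent, 8 lower and 2 higher in light in the deletion strain, 5 lower and 2 higher without tmk3 in darkness, and 6 lower and 1 higher without tmk3 in light. Over all genes tested, 26.7% were lower and 20.8% higher in light in the parent, and 21.1% and 17.7% in the deletion strain. The deletion gave 21.6% and 19.1% in darkness and 9.78% and 10.8% in light. TrA0001W, the first number of its series, had 33.5, 22.5 and 40.9 CPM in the dark parent and 12.2, 8.46 and 10.8 CPM in the dark deletion strain. In light it had 14.3, 18.7 and 16.1 CPM against 5.14, 3.59 and 4.46 CPM. Each strain pair was separate, with falls without tmk3 of -1.62 (SE 0.24, edgeR adjusted p = 0.000427) in darkness and -1.89 (SE 0.25, edgeR adjusted p = 0.000386) in light. It also fell in light, by 0.98 in the parent and 1.25 in the deletion strain. TrB1971C, number 7 from the end of series B, was likewise called lower in all 4, by between 1.88 and 2.34, from 36.7, 18.7 and 41.2 CPM in the dark parent to 1.03, 1.72 and 2.43 CPM in the light deletion strain. These comparisons share groups, so the 4 calls of a member are not independent.

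TrC1578W, number 3 from the end of series C, was lower in light only: it had 42.1, 65.9 and 45.2 CPM in the dark parent and 27.3, 24.1 and 56.1 CPM in the dark deletion strain, which overlapped, against 3.59 to 5.73 CPM in all light libraries. The falls were -3.29 (SE 0.32) and -3.24 (SE 0.33), with edgeR adjusted p of 1.62e-05 and 3.18e-05. TrE1300C, number 8 from the end of series E, went up in light in both strains, by 0.73 in the parent and 0.51 in the deletion strain. TrC0012W rose in light in the parent, by 1.06 from 123, 84.0 and 143 CPM to 256, 207 and 267 CPM. TrG1208C and TrF1205W were called in none of the 5 contrasts, and TrG1208C had between 11.1 and 22.1 CPM in the 12 libraries. The outermost member was therefore not lower at every end.

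The largest single changes among the better expressed members were mostly at low levels in 1 group. TrE0049C had 0.139, 0.0824 and 0.148 CPM in the dark parent (5 counts in all) and 63.3, 48.4 and 47.9 CPM without tmk3, then 1.51, 2.79 and 2.35 CPM in the light parent and 77.1, 33.7 and 37.5 CPM without tmk3. Both groups of the deletion strain stood above both of the parent, by 8.64 in darkness (SE 0.50, edgeR adjusted p = 1.63e-06) and 4.48 in light (SE 0.36, edgeR adjusted p = 1.19e-05). Light raised it in the parent (4.05, edgeR adjusted p = 0.000201) and was not called in the deletion strain (-0.11). TrG0050C had 1.80, 1.07 and 0.443 CPM in the dark parent and 99.3, 68.0 and 43.8 CPM without tmk3, and was under 1 CPM in every light library. Its rise in darkness was 5.97 (SE 0.53, edgeR adjusted p = 1.82e-05).

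TrG0015C and its neighbour TrG0016W gave the largest falls in darkness by the rule for named members, and they were uneven within the dark parent. TrG0015C had 87.9, 261 and 3.32 CPM there and 0.358, 0.127 and 2.51 CPM without tmk3. TrG0016W had 160, 408 and 6.64 CPM there and 0.429, 0.318 and 5.01 CPM without tmk3. The libraries of the strains did not overlap, but replicate 3 of each came close. The log2 fold changes were -6.81 (SE 1.58) and -6.59 (SE 1.56), with edgeR adjusted p of 0.00636 and 0.00702. They were -5.43 and -5.37 when replicate 2 of the dark parent was left out. Leaving out the dark deletion strain's replicate 3 gave -8.90 and -8.98.

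Rises in light included members that were not detected in the dark parent. TrC1533C held 0 counts there and 350, 118 and 177 CPM in the light parent, at least 3010-fold higher, with the floor set at 3 counts in the whole group. In the deletion strain it had 3.79, 0.0636 and 0.228 CPM in darkness and 2.14, 5.99 and 3.65 CPM in light, which overlapped, and was lower than the parent in light (-5.77, SE 0.97, edgeR adjusted p = 0.00305). TrF1202W also held 0 counts in the dark parent and 60.6, 50.9 and 49.96 CPM in the light parent, at least 727-fold higher. Without tmk3 it had 0.215, 0.191 and 0.114 CPM in darkness and 1.82, 2.10 and 1.78 CPM in light, a rise of 3.42 (SE 0.26, edgeR adjusted p = 1.95e-05). In contrast to these, TrB1951W rose in both strains, from 0.901, 1.90 and 0.369 CPM to 370, 239 and 380 CPM in the parent and from 3.72, 2.86 and 3.31 CPM to 218, 300 and 238 CPM in the deletion strain. TrB1967C fell in light in the parent, from 56.4, 33.9 and 60.8 CPM to 2 counts, a ratio of 1132 (95% exact interval 313 to 9354, counting error only).

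The interaction compared the deletion effect in light with that in darkness. The effect in light was called higher for 39 members (8.16%, against 6.39% of all genes) and lower for 60 (12.6%, against 7.71%). The median was -0.14 for the members and 0.05 for all genes. All 39 positive and 54 of the negative values were at least 2-fold, against 4.72% and 5.67% of all genes. The 39 became 24 without replicate 1 of the light deletion strain and 25 without replicate 1 of the light parent. E first had the highest share of positive values called (7 members, 18.4%), and F first the highest share of negative ones (7 members, 25%). By distance, negative calls were 2.94% in numbers 1 to 10 and 19.7% in numbers 41 to 50, against 7.35% beyond 100 numbers. Positive calls were most frequent in numbers 11 to 20, at 19.6% (18 members), against 6.13% beyond 100 numbers. A single run at E first held 6 of these 18, and the share without that end is not given.

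At E first the 6 neighbours TrE0011C to TrE0016W were all called positive, with a median of 6.55 and 9.22 for TrE0016W (SE 0.88, edgeR adjusted p = 0.000145). At E last the 3 members TrE1262C to TrE1264W were all negative. TrE1264W, the leading member of that end, had 723, 772 and 793 CPM in the dark parent and 1873, 1670 and 1939 CPM in the dark deletion strain. In light it had 801, 731 and 762 CPM in the parent and 251, 269 and 211 CPM without tmk3. The parent overlapped between light and darkness, and the deletion strain was above it in darkness and below it in light. Its log2 fold changes without tmk3 were 1.26 in darkness and -1.65 in light (SE 0.12 for both), and the interaction was -2.91 (SE 0.17, edgeR adjusted p = 2.33e-05). TrA2141C, number 9 from the end of series A, had 17.8, 17.1 and 18.0 CPM in the dark parent and 32.9, 31.1 and 38.0 CPM without tmk3, a rise of 0.95 (SE 0.17, edgeR adjusted p = 0.00131). In light it had 3.71, 5.59 and 4.94 CPM against 3.56, 2.77 and 2.76 CPM, and that fall (-0.64) was lost when either replicate 2 or 3 of either light group was left out. TrG0012W was lower without tmk3 in darkness, with 64.1, 51.3 and 87.3 CPM against 16.2, 9.42 and 34.7 CPM (-1.75, edgeR adjusted p = 0.00447). Replicate 3 of the dark deletion strain was the highest there, and without it the value was -2.40. In light its groups overlapped, at 40.2, 52.1 and 50.6 CPM and 53.3, 50.7 and 58.1 CPM.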

How the data were processed

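The deposited values are the authors' counts of reads for each gene identifier, whole numbers that were not normalized. The aligner HISAT2 2.2.1 is listed, per the submitters' processing notes. Per the labels' protocols, libraries were stranded and ribosomal RNA was depleted. How the reads were counted, with which strand setting and filters, was not given in the sources used here, so counts of overlapping genes and near-identical copies are uncertain, and genes near chromosome ends can have such copies. Each column was assigned to its sample by its name, and 0 were left unused.

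Counts were fitted in R 4.3.3 with edgeR 4.0.16: filterByExpr kept 8998 of 10879 identifiers, TMM set the library sizes, and a single model of the 4 group means was tested by quasi-likelihood F tests with Benjamini-Hochberg adjustment over the 8998. SE is the absolute log2 fold change over the square root of F. It is unreliable where a group holds few counts. DESeq2 1.42.0 was an alternative. The procedure was run on simulated counts with known changes set in a single group, as many up as down. That simulation had no other differences between groups, so it does not show how scaling or calls behave in these data. The common biological coefficient of variation was 0.26. Distance is counted in listed numbers from the outermost one. Folds against a group at 0 counts are bounds computed from 3 counts in that group, and with 1 to 3 counts the ratio has a 95% exact interval. Both cover counting error only.

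Named members were, per contrast, the 2 largest rises and 2 largest falls among called members whose log2 CPM averaged at least 3 and, except for the interaction, no overlap of libraries. To these came, per end, the outermost member at that level and the member with the highest mean CPM, and the edges of the longest runs of called neighbours. TrE0013C, TrD1407W, the 3 members inward of the run at D last and the pair flanking the run at E first were named after their values were seen. The members, the lists and the rule were chosen with earlier results of these data known, among them a higher share of at least 2-fold falls at the series ends, so the counts by end describe that pattern again and are no independent support for it. The alternatives were other scalings and tests, no filter, a replicate block, other thresholds, end widths and count minimums, and each library left out.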

Additional observations from a re-analysis of the deposited data

Results flagged for a closer look

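For 21 of the named members the effect of the deletion was not the same in light as in darkness, by edgeR's quasi-likelihood test of the interaction with Benjamini-Hochberg adjustment over all 8998 genes tested. Over all genes tested, the interaction was called higher for 6.39% and lower for 7.71%. Some of the 21 were named for a large interaction value or as edges of an interaction run, so the naming in part fixed this count. The values below are the log2 effect in light minus that in darkness. Positive values were those of TrE0016W (9.22), TrB1967C (7.75), TrE0011C (6.69), TrE0012W (6.40), TrE0014C (6.21), TrG0022C (5.93), TrG0012W (1.93) and TrB0024W (1.22). Negative values were those of TrC1533C (-12.97), TrF1202W (-9.16), TrA0046W (-4.16), TrE0049C (-4.16), TrE1262C (-4.08), TrC1548C (-3.11), TrE1264W (-2.91), TrA0050C (-2.18), TrC1536W (-2.12), TrB1951W (-2.05), TrA2141C (-1.59), TrC0012W (-0.86) and TrF0046C (-0.71). TrC1533C and TrF1202W held 0 counts in the dark parent, so the size of their values depends on the prior count. Members of the same run share neighbours and are not separate observations.

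Leaving out 1 library ended the call of several. TrB1967C was not called without replicate 1 of the light deletion strain (5.18, adjusted p = 0.0780), in which 1.98 of its CPM lay, against 0.225 and 0 in the other libraries of that group. TrG0022C lost its call without any of 5 libraries (4.38 without replicate 1 of the light deletion strain) and reached 7.09 without replicate 2 of the light parent. TrB1951W lost it without any of 6 libraries, with values between -2.78 and -1.64. TrC0012W, TrF0046C and TrG0012W lost it without any of 9, 7 and 9 libraries, with adjusted p up to 0.0972, 0.0956 and 0.0850. TrC1533C lost it when the dark parent's replicate 2 and the dark deletion strain's replicate 1 were left out together (-10.004, adjusted p = 0.0862).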

How the results depend on the processing

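None of the 189 called values of named members turned its direction under the alternatives, and direction was not followed for other members; with total-count scaling the median over members for the deletion in darkness was 0.02 in place of -0.27. Counts of members called stayed within 1.5 times the main count under other scalings, DESeq2, no filter, fits to the groups compared and the fit without the dark parent's replicate 2 and the dark deletion strain's replicate 1, an alternative added after seeing the data. At an adjusted p below 0.01, 34 members were higher in light in the deletion strain, and 17 higher and 33 lower for the interaction. With at least a 2-fold change 37 were higher in light in the deletion strain. Ends of 25 numbers gave 11.2% higher and 43.4% lower for the deletion in darkness, 5.85% higher for the deletion in light, 12.2% higher and 50.7% lower for light in the parent, and 13.7% higher and 7.80% lower for the interaction. Ends of 100 numbers gave 34.2% lower for light in the deletion strain. With each library left out in turn, higher and lower members numbered 68 to 96 and 122 to 161 for the deletion in darkness, 28 to 52 and 82 to 131 for the deletion in light, 66 to 91 and 169 to 208 for light in the parent, 40 to 71 and 158 to 224 for light in the deletion strain, and 24 to 56 and 42 to 78 for the interaction. The cause of these shifts was not tested. Of the 189 values 46 lost the call under some alternative (213 of 3562 values).

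Replicate numbers did not pair the libraries: the correlation of same-numbered deviations lay between -0.37 and 0.12 over 18 pairs, 3 of them over 0.1, and 1 of 12 libraries correlated best with its own number. With the replicate block, 78 members were higher and 130 lower for the deletion in darkness, 35 and 94 for the deletion in light, 74 and 184 for light in the parent, 55 and 187 for light in the deletion strain, and 30 and 47 for the interaction. It ended 13 of the 189 calls of named members, among them the falls in darkness of TrG0015C (-5.88, adjusted p = 0.0525) and TrG0016W (-5.92, adjusted p = 0.0553). Depth limits members near the minimum of 60 counts.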
